A study of Mus musculus with 12 samples.

Results

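The inhibitory neuron genes described here are 9 genes that mark cortical interneurons or the making and packing of the transmitter GABA: Gad1, Gad2, Slc32a1, Pvalb, Lhx6, Dlx1, Dlx6, Erbb4 and Reln. They were chosen by symbol, as the 9 of 50563 genes in the deposited count table whose Ensembl identifiers carry these names in the GRCm38 annotation. The libraries came from the cortex of 12 E4FAD mice and each mouse gave 1 library. All mice had the genotype APOE4+/+, 5FAD-/+, so both groups carry human APOE4 in place of mouse Apoe together with the familial Alzheimer's disease transgenes of the 5xFAD line, and no mouse without them was compared. The CTRL group held 7 mice given vehicle, of which 2 were 12 months and 5 were 14 months old. The DPAn-6 group held 5 mice given the omega-6 fatty acid docosapentaenoic acid, of which 2 were 12 months and 3 were 14 months old. The vehicle with its antioxidants went to both groups by daily gavage for 3 weeks, and sex was given for each group but not for single mice. The comparison asked whether the fatty acid altered the transcripts of inhibitory neurons in aged mice with advanced amyloid pathology.

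Inhibitory interneurons are the minority of cortical neurons that release GABA onto neighbouring cells and so restrain and time the firing of excitatory neurons. Glutamate decarboxylase makes GABA, the vesicular transporter loads it into synaptic vesicles, and transcription factors of the Dlx and Lhx families set and keep the identity of these cells. Several classes exist, among them fast-spiking parvalbumin cells, somatostatin cells and cells marked by Vip, Lamp5 or reelin, and changes of parvalbumin cells and of reelin have been studied in amyloid mouse models.

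None of the 9 genes passed the threshold in the comparison over all genes. By edgeR's quasi-likelihood test 0 of 9 had an adjusted p below 0.05, where 1.55% of the 15688 genes tested did, and 2 of 9 (22.2%) had an unadjusted p below 0.05, where 14.5% of all genes did. These were Slc32a1, higher in DPAn-6, and Reln, lower. The log2 fold change was above 0 in 7 of 9 genes, against 48.7% of all genes, and its median over the 9 was 0.19, against −0.0047 over all genes. Pan-neuronal markers, which are not particular to inhibitory cells, were above 0 in 7 of 7 cases (median 0.11). Rbfox3 had 0.005 (standard error 0.07), Snap25 0.11 (standard error 0.16) and Syt1 0.02 (standard error 0.10). The 2 that passed the unadjusted threshold, Stmn2 (0.13, standard error 0.05) and Nefl (0.16, standard error 0.07), were named after their values were seen. The part of these markers in the values of the 9 genes was not tested. The GABA-making and packing genes, Pvalb and the transcription factors had values above 0, from 0.05 to 0.31, and Erbb4 and Reln had −0.22 each. By the exact permutation test of log2 CPM (CPM gives the count of a gene relative to the library total; two-sided test, smallest possible p 0.00126) 3 of 9 genes were below 0.05, namely Gad1, Slc32a1 and Reln, where 15.8% of all genes were. These are levels in bulk tissue, in which fewer cells of a type and less RNA per cell cannot be told apart.

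The CTRL libraries held 15339098 to 19500154 counts with a median of 17449553, and the DPAn-6 libraries 15208803 to 26520251 with a median of 18400132. The library of CTRL replicate 3 stood apart from the other 11. The deviation of its genes from the mean of the 12 libraries had an SD of 0.593 on the log2 scale, against 0.253 to 0.364 elsewhere, and ran with GC content across genes at r = −0.57 and with log2 transcript length at r = 0.29. Slc32a1 had a GC content of 61.9%, higher than in 98.0% of the genes tested, and the longest transcripts of Erbb4 (12037 bases) and Reln (11699 bases) were longer than those of 98.8% and 98.6%. Values without CTRL replicate 3 are therefore given beside those of most of the genes.

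**Figure D1:**
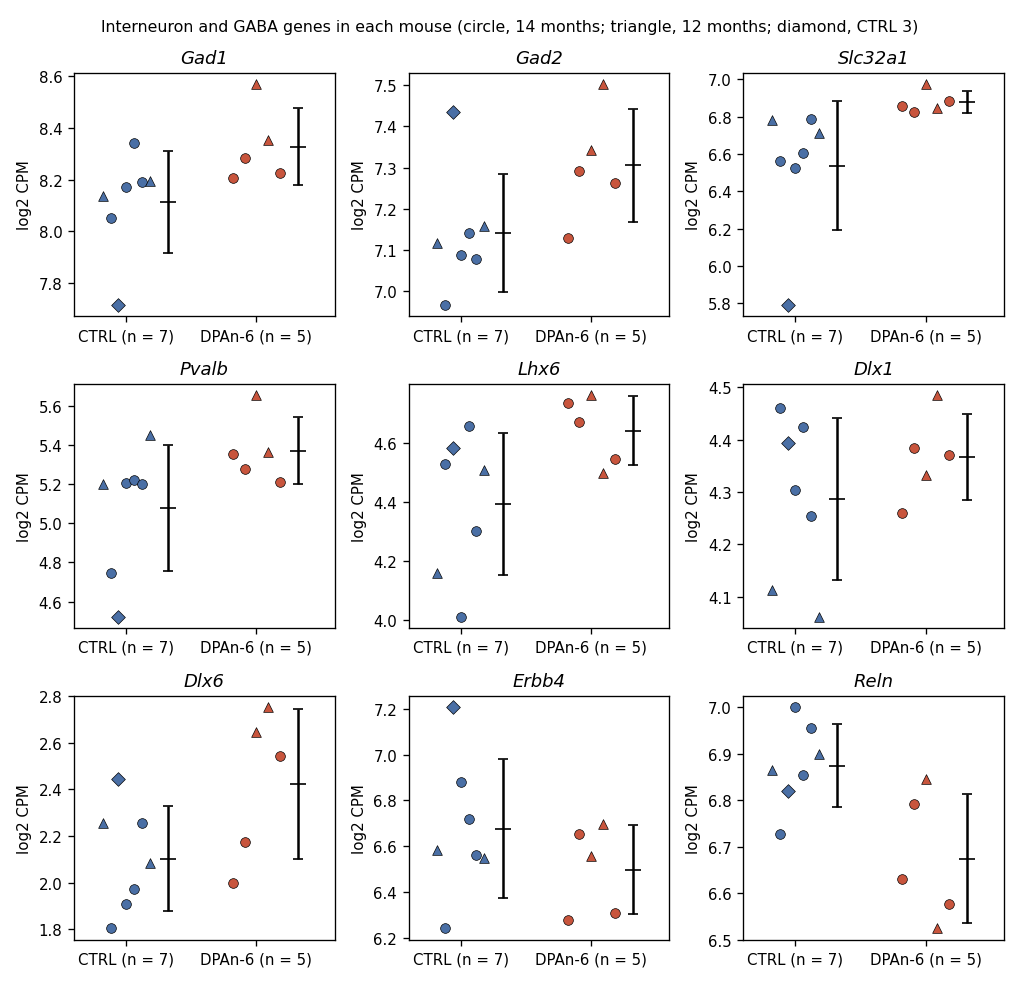
Each panel shows 1 gene, with log2 CPM on the vertical axis and 1 point per mouse (circles 14 months, triangles 12 months, diamond CTRL replicate 3, also 14 months). The bar beside each group is its mean and SD (n = 7 CTRL, n = 5 DPAn-6). Slc32a1 is the gene whose groups do not overlap, and CTRL replicate 3 is the lowest point of Gad1, Slc32a1 and Pvalb and the highest CTRL point of Gad2, Dlx6 and Erbb4.

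Gad1 and Gad2 encode the 2 forms of glutamate decarboxylase, the enzyme that converts glutamate to GABA. The first, GAD67, is found through the whole cell, and the second, GAD65, is concentrated at synaptic terminals. In CTRL mice Gad1 (ENSMUSG00000070880; GRCm38 chromosome 2, 70553072 to 70602014, plus strand) had a lowest value of 7.72 log2 CPM, a median of 8.17 and a highest value of 8.34. In DPAn-6 mice Gad1 had 8.21, 8.28, 8.57, 8.35 and 8.22. All 5 DPAn-6 mice were above the CTRL mean and 2 were above every CTRL mouse, so the groups overlapped. The means were 8.11 ± 0.20 (SD, n = 7) and 8.33 ± 0.15 (SD, n = 5), and the fold change was 0.19 on the log2 scale (standard error 0.09). The adjusted p of Gad1 was 0.366 by edgeR's quasi-likelihood test and its exact permutation p was 0.0492. Without CTRL replicate 3, which had the lowest Gad1, the exact permutation p was 0.0628.

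Gad2 (ENSMUSG00000026787; chromosome 2, 22622205 to 22693874, plus strand) had 6.97 log2 CPM at the lowest, 7.12 at the median and 7.43 at the highest in CTRL mice. In DPAn-6 mice it had 7.13, 7.29, 7.34, 7.50 and 7.26. The highest CTRL value was that of replicate 3, which had the lowest Gad1, and the other 6 CTRL mice were at most at 7.16. With all mice the log2 fold change of Gad2 was 0.14 (standard error 0.09, edgeR adjusted p = 0.521, exact permutation p = 0.0720). Without CTRL replicate 3 it was 0.20 (standard error 0.06, edgeR adjusted p = 0.0652), with an exact permutation p of 0.00649, and the lowest DPAn-6 mouse still lay inside the CTRL range. The log2 ratio of Gad1 to Gad2, chosen after the values were seen, was 0.97 ± 0.31 (SD, n = 7) in the CTRL group and 1.02 ± 0.14 (SD, n = 5) under DPAn-6 (exact permutation p = 0.895). In CTRL replicate 3 the ratio was 0.28, and in the other CTRL mice it lay between 1.02 and 1.20.

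Slc32a1 encodes VGAT, the transporter that fills synaptic vesicles with GABA and glycine. In CTRL mice Slc32a1 (ENSMUSG00000037771; chromosome 2, 158610767 to 158615748, plus strand) had a lowest value of 5.79 log2 CPM, a median of 6.60 and a highest value of 6.79. In DPAn-6 mice it had 6.86, 6.83, 6.98, 6.85 and 6.88. Every DPAn-6 mouse was above every CTRL mouse, and the DPAn-6 values lay close together. Slc32a1 was the 1 gene of the 9 whose groups did not overlap, and of all genes tested 3.22% did not overlap, with 1.73% higher and 1.49% lower in DPAn-6. The means were 6.54 ± 0.35 (SD, n = 7) and 6.88 ± 0.06 (SD, n = 5), and the log2 fold change was 0.29 (standard error 0.12), or 1.22-fold. The unadjusted p of Slc32a1 was 0.0332 and the adjusted p 0.293 by edgeR's quasi-likelihood test, and the exact permutation p was 0.0126.

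CTRL replicate 3 was the lowest of the CTRL mice in Slc32a1 and widened their spread. Without it the CTRL mice ranged from 6.52 to 6.79, the groups still did not overlap, and the log2 fold change of Slc32a1 was 0.20 (standard error 0.06, edgeR adjusted p = 0.0535, exact permutation p = 0.00649). After removal of the trend that each library showed on transcript length and GC content, an alternative chosen after the data were seen, it was 0.24 (standard error 0.06, edgeR adjusted p = 0.0575). Without CTRL replicates 2, 3 and 5, also chosen after the data were seen, Slc32a1 had a log2 fold change of 0.16 (edgeR adjusted p = 0.187). Set against Slc17a7, which encodes the vesicular glutamate transporter of excitatory cortical neurons and had a log2 fold change of 0.00, the log2 ratio of Slc32a1 was −4.22 ± 0.17 (SD, n = 7) in the CTRL group and −3.92 ± 0.05 (SD, n = 5) under DPAn-6. This ratio was chosen after the values were seen. Its difference of 0.30 had an exact permutation p of 0.00631, and it was 0.27 without CTRL replicate 3 (exact permutation p = 0.00649). Of the other excitatory markers, Neurod2 had a log2 fold change of 0.25 (standard error 0.06) and Camk2a −0.21 (standard error 0.08). Ratios to these were not taken. The antisense gene Gm14205 shares 697 exon bases with Slc32a1 (24.9% of its exons) and had 1 to 10 counts, against 848 to 3134 counts of Slc32a1.

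The sequence in front of the genes is shown for Slc32a1 and Reln, the 2 genes past the unadjusted threshold. These are the 250 bases upstream of the RefSeq transcription start in GRCm38.p6, written 5′ to 3′ on the strand of the gene, with each GC box (GGGCGG or its reverse complement CCGCCC, the core bound by Sp1-type factors) in capitals. The window of Slc32a1 is chr2:158610508-158610757 on the plus strand and that of Reln is chr5:22344706-22344955 on the minus strand.
Slc32a1: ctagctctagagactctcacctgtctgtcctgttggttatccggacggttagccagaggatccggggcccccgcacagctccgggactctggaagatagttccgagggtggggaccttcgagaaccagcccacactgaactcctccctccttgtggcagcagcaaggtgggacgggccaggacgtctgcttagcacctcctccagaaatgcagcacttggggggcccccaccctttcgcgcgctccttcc
Reln: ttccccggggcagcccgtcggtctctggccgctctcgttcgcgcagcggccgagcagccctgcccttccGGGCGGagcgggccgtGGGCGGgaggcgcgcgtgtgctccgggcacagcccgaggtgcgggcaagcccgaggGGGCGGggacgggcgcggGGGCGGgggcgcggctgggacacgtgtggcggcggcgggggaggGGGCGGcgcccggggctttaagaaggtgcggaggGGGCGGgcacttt
The Reln window held 6 GC boxes, all as GGGCGG on the strand of the gene, and 80.0% G or C. The Slc32a1 window held 0 GC boxes and 62.4% G or C. Of all 32851 RefSeq promoter windows of the same length, 32.7% held at least 1 GC box, 0.886% held as many as Reln or more, and the median G or C content was 52.4%. Of the 9 genes, 8 had at least 1 window, and Dlx6 had none in the table used. Gad1 had 1 GC box, and Lhx6 had 1, 1 and 0 in its 3 windows. Gad2, Pvalb, Dlx1 and Erbb4 had 0, and the window of Erbb4 held 54% G or C. A link between these windows and the direction of the fold change was not tested. A match to these letters describes the sequence and says nothing of binding.

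Pvalb encodes parvalbumin, the calcium buffer of fast-spiking basket and chandelier cells. In CTRL mice Pvalb (ENSMUSG00000005716; chromosome 15, 78191114 to 78206400, minus strand) had 4.52 log2 CPM at the lowest, 5.20 at the median and 5.45 at the highest. In DPAn-6 mice it had 5.35, 5.27, 5.65, 5.36 and 5.21. All 5 DPAn-6 mice were above the CTRL mean, but 1 was above every CTRL mouse, and the lowest CTRL mice were replicates 3 and 2. For Pvalb the log2 fold change was 0.25 (standard error 0.13, edgeR adjusted p = 0.412, exact permutation p = 0.122). Without CTRL replicate 3 it was 0.18 (standard error 0.10, exact permutation p = 0.158).

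The transcription factors were measured at lower levels. Lhx6 is kept by cells born in the medial ganglionic eminence, from which parvalbumin and somatostatin cells come, and Dlx1 and Dlx6 are homeobox genes of the embryonic inhibitory lineage. In CTRL mice Lhx6 (ENSMUSG00000026890; chromosome 2, 36081953 to 36105408, minus strand) had 4.01 log2 CPM at the lowest, 4.51 at the median and 4.66 at the highest. In DPAn-6 mice Lhx6 had 4.74, 4.67, 4.76, 4.50 and 4.55. All 5 DPAn-6 mice were above the CTRL mean and 3 were above every CTRL mouse. Lhx6 had a log2 fold change of 0.21 (standard error 0.11, edgeR adjusted p = 0.411, exact permutation p = 0.0606), and it was 0.25 (standard error 0.10, exact permutation p = 0.0455) without CTRL replicate 3. Without CTRL replicates 2, 3 and 5, a choice made after the data were seen, Lhx6 had a log2 fold change of 0.37 (standard error 0.10) and an edgeR adjusted p of 0.0473.

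In CTRL mice Dlx1 (ENSMUSG00000041911; chromosome 2, 71528113 to 71533981, plus strand) had 4.06 log2 CPM at the lowest, 4.30 at the median and 4.46 at the highest. In DPAn-6 mice Dlx1 had 4.26, 4.38, 4.33, 4.48 and 4.37. These lay within or just above the CTRL range, and the log2 fold change of 0.05 (standard error 0.09, edgeR adjusted p = 0.859, exact permutation p = 0.322) was the smallest in size of the 9. Dlx1as, which runs antisense and shares 335 exon bases with Dlx1 (6.21% of its exons), had 40 to 116 counts against 295 to 548 of Dlx1, and a log2 fold change of 0.31 (standard error 0.16, edgeR adjusted p = 0.420).

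Dlx6 (ENSMUSG00000029754; chromosome 6, 6863334 to 6868568, plus strand) rested on 54 to 154 counts per mouse, the fewest of the 9. In CTRL mice it had 1.80 log2 CPM at the lowest, 2.08 at the median and 2.44 at the highest, and in DPAn-6 mice it had 2.0, 2.17, 2.65, 2.75 and 2.54. Of the DPAn-6 mice 3 were above every CTRL mouse and the other 2 were inside the CTRL range. Dlx6 had a log2 fold change of 0.31 (standard error 0.16, edgeR adjusted p = 0.383, exact permutation p = 0.0732), and without CTRL replicate 3 it was 0.38 (standard error 0.15, exact permutation p = 0.0476). Dlx6os1, a long noncoding RNA on the opposite strand with no exon base in common with Dlx6, had 176 to 336 counts. Its log2 fold change was 0.09 (standard error 0.16, edgeR adjusted p = 0.856).

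Erbb4 encodes the neuregulin receptor that interneurons carry on their postsynaptic side. In CTRL mice Erbb4 (ENSMUSG00000062209; chromosome 1, 68032186 to 69108059, minus strand) had 6.24 log2 CPM at the lowest, 6.59 at the median and 7.21 at the highest. In DPAn-6 mice it had 6.28, 6.65, 6.56, 6.70 and 6.31. The DPAn-6 values lay inside the CTRL range and the highest value of all was that of CTRL replicate 3. Erbb4 had a log2 fold change of −0.22 (standard error 0.14, edgeR adjusted p = 0.526, exact permutation p = 0.288). It was −0.11 (standard error 0.10) without CTRL replicate 3 and −0.05 (standard error 0.05) with the trend on length and GC removed.

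Reln encodes reelin, a large secreted glycoprotein that guides neuronal layering in development and in the adult cortex is made by interneurons, Cajal-Retzius cells having mostly disappeared by then. In CTRL mice Reln (ENSMUSG00000042453; chromosome 5, 21884454 to 22344702, minus strand) had 6.73 log2 CPM at the lowest, 6.86 at the median and 7.0 at the highest. In DPAn-6 mice it had 6.63, 6.79, 6.85, 6.52 and 6.58. The 5 DPAn-6 mice all had less Reln than the CTRL mean, and 3 of them less than the lowest CTRL mouse, so the groups overlapped in part. The means were 6.87 ± 0.09 (SD, n = 7) and 6.67 ± 0.14 (SD, n = 5). Reln had a log2 fold change of −0.22 (standard error 0.07), an unadjusted p of 0.00759 and an adjusted p of 0.151 by edgeR's quasi-likelihood test, and an exact permutation p of 0.0139. Of all genes tested, 9.02% had an unadjusted p below 0.05 with a lower level in DPAn-6 and 5.51% with a higher one.

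The difference of Reln was as large without CTRL replicate 3 (log2 fold change −0.22, standard error 0.07, edgeR adjusted p = 0.0566, exact permutation p = 0.0216). Its adjusted p was below 0.05 by limma-voom with sample weights (log2 fold change −0.23, adjusted p = 0.0287) and without CTRL replicates 2, 3 and 5 (log2 fold change −0.27, edgeR adjusted p = 0.0425). Once the trend on length and GC was taken out, Reln had −0.07 on the log2 scale (standard error 0.06, edgeR adjusted p = 0.583). The part of transcript length in the difference was not tested further. Of the Cajal-Retzius markers, Lhx1 and Lhx5 were at 0 counts in some mice, and the summed level of the 4 markers was 2.36 to 4.11 CPM in CTRL and 1.61 to 2.63 CPM in DPAn-6 mice. Ebf3, the 1 of the 4 that was tested, had 22 to 55 counts and a log2 fold change of −0.51 (standard error 0.20, edgeR adjusted p = 0.259), with an unadjusted p below 0.05, and 3 of the DPAn-6 mice had less than the lowest CTRL mouse. Its part in the difference of Reln was not tested.

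**Figure D2:**
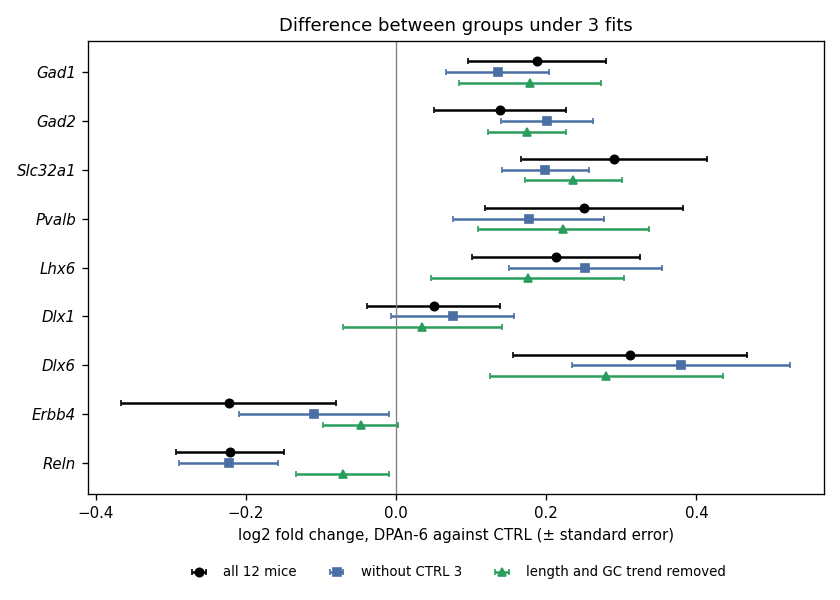
The horizontal axis is the log2 fold change of DPAn-6 against CTRL from edgeR and the bars are standard errors, for all 12 mice (circles), without CTRL replicate 3 (squares) and after removal of the trend on transcript length and GC content (triangles). Reln moves from −0.22 to −0.07 and Erbb4 from −0.22 to −0.05 when the trend is removed, while Slc32a1 is at 0.20 to 0.29 in these fits.

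Levels were compared between genes as CPM per kilobase of exon, averaged over the 12 mice. The length took in all annotated exons of a gene. It was 23738 bases for Reln, 7639 for Gad1 and 12355 for Erbb4, where the longest transcripts had 11699, 3601 and 12037 bases. Levels by the longest transcript were not compared, so the order below, as between Reln and Erbb4, holds for the exon length only. Gad1 had 38.9, Slc32a1 37.3, Pvalb 35.9 and Gad2 25.3 CPM per kilobase, and each of these overlapped the next over the mice. Below a gap came Erbb4 at 8.0. Below a further gap Lhx6 had 4.75, Reln 4.69 and Dlx1 3.71 CPM per kilobase, and these again overlapped, while Dlx6 was the lowest at 2.01 and did not overlap Dlx1. By this measure the enzymes, the transporter and the calcium buffer were above the receptor, the secreted protein and the transcription factors in every mouse.

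**Figure D3:**
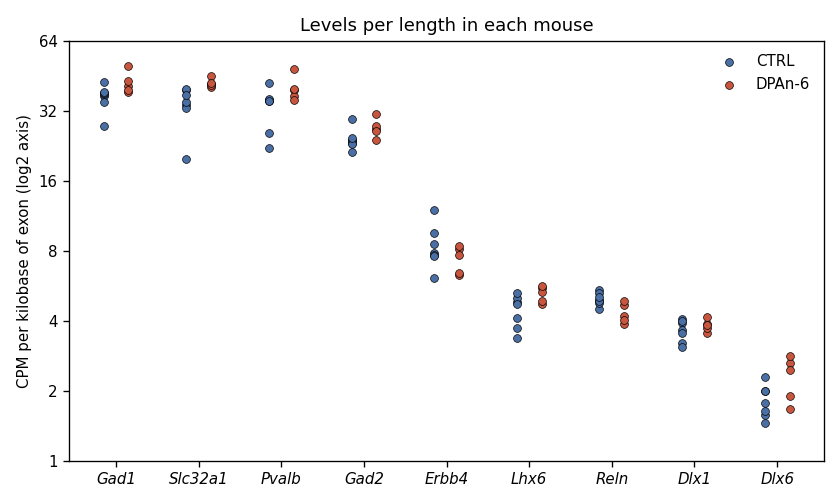
The vertical axis is CPM per kilobase of exon on a log2 axis, with 1 point per mouse (CTRL left, DPAn-6 right of each gene). Gad1, Slc32a1, Pvalb and Gad2 form an upper band that does not overlap Erbb4, and Dlx6 is lowest.

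The ages were compared by the interaction of treatment and age. Dlx1 was the 1 gene of the 9 with an unadjusted interaction p below 0.05, where 4.26% of all genes passed, and its adjusted p was 0.905 by edgeR's quasi-likelihood test. At 12 months its mean was 4.09 log2 CPM in 2 CTRL mice and 4.41 in 2 DPAn-6 mice, and at 14 months 4.37 in 5 CTRL and 4.34 in 3 DPAn-6 mice. The log2 fold change was 0.32 (standard error 0.13) at 12 months and −0.06 (standard error 0.09) at 14 months. Slc32a1 had 0.16 (standard error 0.21) at 12 months and 0.34 (standard error 0.15) at 14 months, and Reln had −0.19 (standard error 0.13) and −0.24 (standard error 0.10), so both kept their direction at each age. CTRL replicate 3 was 14 months old and had 5.79 log2 CPM of Slc32a1, where the other 14-month CTRL mice had 6.56, 6.52, 6.60 and 6.79. The fold changes at each age include this mouse and were not fitted without it.

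Across the 12 mice, with each group centred on its mean, 36 pairs of the 9 genes were compared and 3 passed at a Benjamini-Hochberg adjusted permutation p below 0.05. Gad1 and Pvalb varied together (Pearson r = 0.84, permutation p = 0.00175, adjusted p = 0.0210; Spearman rho = 0.89, permutation p = 0.00089, adjusted p = 0.0320). Their r was 0.63 without CTRL replicate 3 and DPAn-6 replicate 3, the mice farthest from the median of Gad1. Gad2 and Erbb4 had r = 0.86 (permutation p = 0.00126, adjusted p = 0.0210; rho = 0.73, permutation p = 0.0130, adjusted p = 0.156), and r = 0.66 without the 2 farthest mice. Gad2 and Dlx6 had r = 0.80 (permutation p = 0.00152, adjusted p = 0.0210; rho = 0.73, permutation p = 0.0133, adjusted p = 0.156), and r = 0.67 without them. The number of pairs that passed was 0 without CTRL replicate 2 or 3 or DPAn-6 replicate 3 or 4 and 1 without DPAn-6 replicate 1. With any 1 mouse left out, r of these pairs stayed between 0.69 and 0.89 for Gad1 and Pvalb, 0.69 and 0.92 for Gad2 and Erbb4, and 0.75 and 0.85 for Gad2 and Dlx6. Gad1 and Slc32a1 had r = 0.74 (permutation p = 0.0225, adjusted p = 0.162, with rho = 0.67, permutation p = 0.0173, adjusted p = 0.156), and r = 0.28 without CTRL replicate 3. Of the 36 pairs 18 had r above 0. Pvalb and Dlx1 had r = −0.66 (permutation p = 0.0438, adjusted p = 0.263). Gad1 and Gad2 had r = −0.29, and r = 0.57 without CTRL replicate 3. The part of GC content and transcript length in these values was not tested.

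By the same centred Pearson r over 12 mice, the genes outside the 9 most like Gad1 were Snx25 (0.96), Dnajc27 (0.96) and Tmppe (0.95). Those most like Pvalb were Slc39a9 (0.95), Sec22b (0.95) and Cbln2 (0.94). Those most like Reln were Gm43457 (0.89), Mtus2 (0.89) and Slc35e1 (0.85). These are the highest values among all genes tested and are given as a description with no test, and all points share the libraries and their depth.

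Related genes were read from 7 lists with 62 genes, of which 61 were tested and Nkx2-1 was too low. Of the 61, 10 (16.4%) had an unadjusted p below 0.05 against 14.5% of all genes, 6 of them higher and 4 lower in DPAn-6, and the median log2 fold change was 0.04. Only Crhbp and Crh had an adjusted p below 0.05 among these 61 genes, and both rose, where 0.408% of all genes had an adjusted p below 0.05 with a rise. Both belong to the corticotropin-releasing hormone system: Crh encodes the hormone, which some Vip and Cck interneurons make, and Crhbp its binding protein, made among others by somatostatin cells.

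In CTRL mice Crh had 1.44 log2 CPM at the lowest, 1.86 at the median and 2.08 at the highest, and in DPAn-6 mice 2.88, 2.23, 2.71, 2.40 and 2.32. Every DPAn-6 mouse was above every CTRL mouse, as in 1.73% of all genes tested. For Crh the log2 fold change was 0.68 (standard error 0.14, edgeR adjusted p = 0.0302, exact permutation p = 0.00126, the smallest possible). In CTRL mice Crhbp had 3.47 log2 CPM at the lowest, 3.67 at the median and 3.94 at the highest, and in DPAn-6 mice 4.10, 4.09, 4.17, 4.06 and 4.29, again with no overlap. Its log2 fold change was 0.46 (standard error 0.09, edgeR adjusted p = 0.0214, exact permutation p = 0.00126). Over 28 alternatives the log2 fold change stayed above 0, from 0.36 to 0.75 for Crh and from 0.34 to 0.54 for Crhbp. The adjusted p was below 0.05 in 15 of the 28 for Crh and in 21 of the 28 for Crhbp. With 1 mouse left out, Crh missed the threshold without CTRL replicate 1 (adjusted p = 0.0594), 2 (0.0518), 4 (0.0643), 5 (0.0625) or 6 (0.0555) and without DPAn-6 replicate 1 (0.0960), 3 (0.108) or 4 (0.0607). Crhbp missed it without DPAn-6 replicate 1 (adjusted p = 0.0507), 3 (0.0772) or 5 (0.0710).

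The list of Vip, Lamp5 and Cck class genes had the most members past the unadjusted threshold, 6 of 12, with 4 higher and 2 lower. Over the 12 genes 6 had a log2 fold change above 0 and 6 below, with a median of 0.05. The summed level of the 12 genes was 708 to 798 CPM in CTRL and 820 to 929 CPM in DPAn-6 mice, without overlap. Cck and Lamp5 alone summed to 319 to 466 CPM in CTRL and 478 to 563 CPM in DPAn-6, while the other 10 genes overlapped, at 317 to 389 and 327 to 394 CPM. Beside Crh these were Cck, which encodes the peptide cholecystokinin (log2 fold change 0.32, standard error 0.09, edgeR adjusted p = 0.0830), Lamp5 (0.29, standard error 0.09, adjusted p = 0.138), Vip, which encodes vasoactive intestinal peptide (0.22, standard error 0.10, adjusted p = 0.302), Ndnf (−0.34, standard error 0.13, adjusted p = 0.235) and Sncg (−0.57, standard error 0.20, adjusted p = 0.189). These 5 were named after their values were seen, and Cck and Lamp5 are also made by excitatory neurons. For Cck all 5 DPAn-6 mice, at 8.25, 7.91, 7.97, 8.0 and 7.99 log2 CPM, were above the highest CTRL mouse at 7.86, as in 1.73% of all genes tested. Without CTRL replicate 3 the edgeR adjusted p of Cck was 0.0190. In that fit 953 of 15616 genes had an adjusted p below 0.05, against 243 of 15688 with all mice.

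In the other lists no gene had an adjusted p below 0.05 besides Crhbp. Of the parvalbumin class 8 of 9 had a log2 fold change above 0 (median 0.08), and the 1 past the unadjusted threshold was lower: Cox6a2, a mitochondrial subunit (−0.45, standard error 0.15, edgeR adjusted p = 0.154). Tac1 had 0.43 (standard error 0.22, adjusted p = 0.405) and Kcnc1, a potassium channel of fast-spiking cells, 0.11 (standard error 0.06, adjusted p = 0.416). Of the somatostatin class 6 of 7 were above 0 (median 0.12). Of 11 interneuron transcription factors tested, 5 were above and 6 below 0 (median −0.02), with Nr2f2 at −0.34, Sox6 at −0.13 and Dlx2 at 0.13, and none passed the unadjusted threshold.

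Genes of the inhibitory postsynapse were above 0 in 5 of 6 cases (median 0.10), and Lhfpl4, which helps to anchor GABA receptors, passed the unadjusted threshold (0.15, standard error 0.07, edgeR adjusted p = 0.329). Its 5 DPAn-6 mice lay above every CTRL mouse, as in 1.73% of all genes tested. Gphn, the scaffold gephyrin, and Nlgn2, the adhesion protein neuroligin 2, each had 0.10. Of the GABA uptake and breakdown genes 6 of 7 were below 0 (median −0.07). Abat, the transaminase that breaks GABA down, had −0.17 (standard error 0.06, edgeR adjusted p = 0.200), and 4 of 5 DPAn-6 mice had less than the lowest CTRL mouse. The transporters Slc6a13 and Slc6a12 had −0.37 (standard error 0.24) and −0.66 (standard error 0.43), the latter from 3 to 24 counts. Of the reelin and neuregulin signalling genes 0 of 9 passed the unadjusted threshold (median −0.02). Among them Dab1, the adaptor inside the reelin-receiving cell, had −0.18 (standard error 0.10, adjusted p = 0.421), Nrg1 had 0.09 and Erbb2 −0.16.

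**Figure D4:**
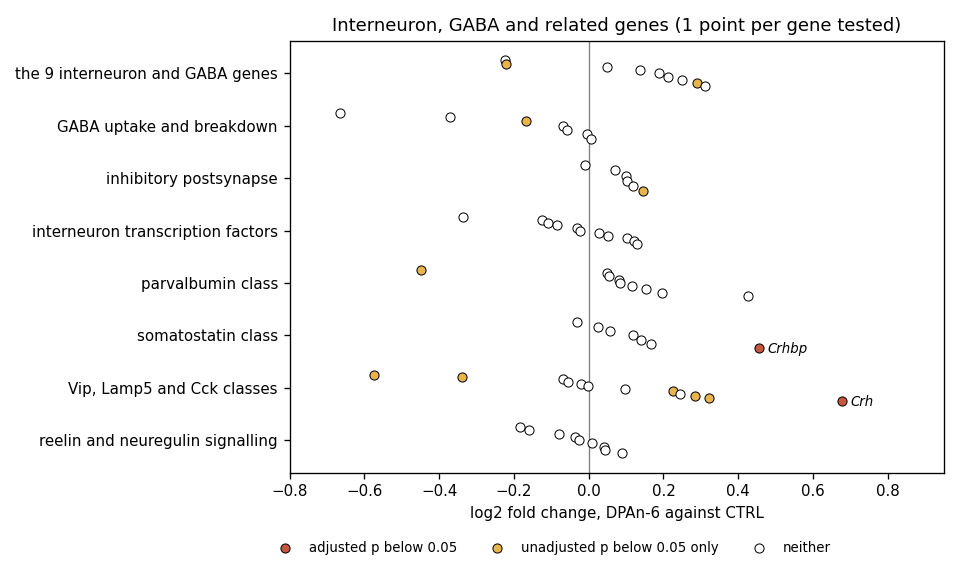
Each point is 1 gene tested, placed by its log2 fold change of DPAn-6 against CTRL, in rows for the 9 genes and the 7 related lists; filled colours mark an adjusted or only an unadjusted edgeR p below 0.05. Crh (0.68) and Crhbp (0.46) are the named points, and the 9 genes spread from −0.22 to 0.31.

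Markers of other cells were read beside these values. Excitatory cortical markers, among them Slc17a7 and Neurod6, were present in every mouse, and their summed level was 7047 to 8630 CPM in CTRL and 6993 to 7410 CPM in DPAn-6 mice, with a median log2 fold change of 0.04 over 9 genes. Camk2a, with a CTRL mean of 12.38 log2 CPM, weighs most in this sum. Neurod2 (0.25, standard error 0.06, edgeR adjusted p = 0.0626) passed the unadjusted threshold upward and Camk2a (−0.21, standard error 0.08, edgeR adjusted p = 0.249) downward. Both were named after their values were seen. Striatal projection neurons also make GABA and express Gad1, Gad2 and Slc32a1. Of their 11 markers 11 had a log2 fold change above 0 (median 0.30) and 1, Drd1, had an unadjusted p below 0.05, with Drd2 at 0.35 and Adora2a at 0.43. Their summed level was 308 to 798 CPM in CTRL and 284 to 624 CPM in DPAn-6, with none at 0. With the mean of the striatal list as covariate, the log2 fold change of Slc32a1 was 0.23 (standard error 0.12, edgeR adjusted p = 0.479), that of Gad1 0.16 (standard error 0.10) and that of Reln −0.23 (standard error 0.08, adjusted p = 0.210).

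Choroid plexus markers were high in CTRL replicates 2, 3 and 5, with a summed level of 12.7 to 1661 CPM in CTRL and 7.51 to 22.9 CPM in DPAn-6, and Ttr reached 10.58 log2 CPM. With Ttr as covariate the log2 fold change was 0.18 (standard error 0.16) for Slc32a1, 0.04 (standard error 0.16) for Pvalb and −0.31 (standard error 0.09, edgeR adjusted p = 0.341) for Reln. Microglia markers were lower in DPAn-6 in 8 of 8 cases, 2 of them, Tmem119 and Csf1r, with an adjusted p below 0.05, and their summed level did not overlap (909 to 1328 CPM in CTRL, 654 to 901 CPM in DPAn-6). Of 6 oligodendrocyte markers 5 were above 0 (median 0.27). The mean of the microglia list was 6.53 to 7.03 log2 CPM in CTRL and 6.0 to 6.47 log2 CPM in DPAn-6 mice. As the groups did not overlap in it, a fit with this mean as covariate can hardly separate it from the treatment. With the mean of the microglia list as covariate the log2 fold change of Gad1 was 0.05 (standard error 0.15), that of Pvalb 0.13 (standard error 0.23) and that of Dlx6 0.02 (standard error 0.25), and those of Gad2, Lhx6 and Dlx1 turned below 0. In the same fit Erbb4 had −0.46 (standard error 0.22). The log2 fold change was 0.43 (standard error 0.21) for Slc32a1, −0.27 (standard error 0.12) for Reln, 0.36 (standard error 0.22) for Crh and 0.34 (standard error 0.15) for Crhbp, and none of these genes had an adjusted p below 0.05 by edgeR. The part of these cell types in the differences of the 9 genes was not tested beyond these covariates.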

How the data were processed

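The authors selected poly(A) RNA from 12 cortices, prepared KAPA mRNA libraries, aligned reads with STAR 2.5.3a to GRCm38 and deposited raw read counts per gene from STAR's gene counting, with no normalization. Which strand was counted is not given in the sources used here. A gene and an antisense gene that share exons could therefore share reads. Symbols, positions and exon lengths are from GENCODE M21 (50339 of 50563 identifiers matched), and promoter sequences from RefSeq. Here the deposited counts were turned into log2 CPM after 0.5 was added. Genes were compared with edgeR 4.0.16 in R 4.3.3 (TMM, filterByExpr, quasi-likelihood test, no covariate) with Benjamini-Hochberg adjustment over the 15688 genes tested. This replaced limma-voom, the method of the study, which was run as an alternative. Log2 CPM of single genes was also put to an exact permutation test (two-sided) over the 792 splits of the mice, and pairs of genes with 100000 resamples within groups (Python 3.11.15, scipy 1.17.1). The fits were tested on simulated data.

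The 9 genes and the lists were chosen with earlier results of these data known. Named are the 9 genes, in each related list the genes with an adjusted p below 0.05 or else up to 3 with the smallest p, the first markers of other cells, overlapping genes, and the 3 genes most like Gad1, Pvalb and Reln. Genes named outside this rule are said to be, apart from Csf1r and Lhx1, which were also named after their values were seen. The alternatives were DESeq2 1.42.0, limma 3.58.1 voom with and without sample weights, totals without TMM, no filter, at least 1 CPM in 5 mice, age, Xist, Ttr, striatal or microglia markers as covariate, a block for the replicate number, the 14-month mice alone, a pseudocount of 2 for log2 CPM, and each mouse left out. A fit with the trend of each library on length and GC taken out, the same with the block, leaving out CTRL replicates 2, 3 and 5, and each mouse left out of the age comparison were added after the data were seen. Within the groups, no pair of libraries agreed within sampling noise (chi-square per degree of freedom at least 5.24). Nothing says that samples of a group were processed separately, so p-values measure the spread between these mice. Of the excitatory list 1 marker is not reported here and was left out of its values.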

Additional observations from a re-analysis of the deposited data

Results flagged for a closer look

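In CTRL replicate 3 the log2 CPM of Slc32a1 was 5.79, and its gap to the next CTRL mouse took 0.736 of the range of the 7 mice. In the same mouse Gad2 was at 7.43, the highest of the CTRL mice, with a gap of 0.588 of the range. Of 18 groups of values looked at in this way (9 genes in each group of mice) 2 stood out, both through CTRL replicate 3. The 18 groups share the 12 libraries, so this count cannot be set against a rate by chance. The effect on Dlx1 differed between the ages by −0.38 on the log2 scale (14 against 12 months, edgeR's quasi-likelihood test, unadjusted p = 0.0352, adjusted p = 0.905), with 2 mice per group at 12 months.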

How the results depend on the processing

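The count of 0 of the 9 genes at an adjusted p below 0.05 became 1 (Reln) by limma-voom with sample weights and 2 (Reln and Lhx6) without CTRL replicates 2, 3 and 5, and was 0 with each mouse left out. The count of 2 at an unadjusted p was 4 with sample weights, 5 without TMM, 5 without a filter, 1 in 14-month mice only, 1 with the microglia markers as covariate and 4 without CTRL replicates 2, 3 and 5. With 1 mouse left out it ranged from 1 (lacking CTRL replicate 4 or DPAn-6 replicate 3) to 5 (without CTRL replicate 3), and was 4 if CTRL replicate 5 or DPAn-6 replicate 1 was left out. The count over all genes at an unadjusted p moved too, from 2280 of 15688 to 3870 of 15688 with sample weights. It was 2322 of 15688 without TMM, 3169 of 30214 without a filter and 1429 of 15953 in 14-month mice. Without CTRL replicates 2, 3 and 5 it was 2769 of 15611. Leaving out CTRL replicate 3 gave 3611 of 15616, CTRL replicate 4 2183 of 15617 and DPAn-6 replicate 3 1758 of 15877. The 3 genes past the exact permutation test became 1 (without DPAn-6 replicate 3 or 5) to 5 (without CTRL replicate 3), the 1 gene differing by age became 0 to 2 (0 lacking CTRL replicate 1, 5 or 7 or DPAn-6 replicate 1, 4 or 5, and 2 lacking CTRL replicate 3), and the 3 pairs became 0 to 3. Of the 61 related genes, 10 past the unadjusted p became 5 with the microglia covariate and 16 without CTRL replicates 2, 3 and 5, and 8 to 14 with 1 mouse left out. Of all genes, 243 at an adjusted p became 696 by DESeq2, 1267 with sample weights, 9 in 14-month mice, 157 with the striatal, 0 with the microglia (1352 at an unadjusted p) and 17 with the Ttr covariate, 522 with the trend on length and GC removed and 541 without CTRL replicates 2, 3 and 5. With 1 mouse left out the count was lowest at 64, lacking DPAn-6 replicate 3, and highest at 953, lacking CTRL replicate 3, and was also over 1.5 times lower without CTRL replicate 1 (137), 2 (160), 4 (144) or 6 (147) and DPAn-6 replicate 1 (104), 2 (124), 4 (93) or 5 (108).

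Replicate numbers did not pair the mice: the correlations of same-numbered deviations were 0.09, 0.02, −0.12, 0.22 and −0.07, and no mouse matched its own number best. With the replicate number as a block, 69 of all genes, 0 and 2 of the 9 genes and 9 related genes passed the same thresholds, and the adjusted p of Crh was 0.129 and of Crhbp 0.0691. With the microglia covariate the log2 fold change turned to −0.048 for Gad2, −0.080 for Lhx6 and −0.050 for Dlx1. The groups did not overlap in this covariate, so it can hardly be separated from the treatment. The log2 fold change of Dlx1 was also −0.052 in 14-month mice and −0.038 with the trend removed together with the block. The cause of these changes of direction was not tested. For the other 6 genes the direction stayed in 28 of 28 alternatives. The standard errors of the 9 log2 fold changes, 0.07 to 0.16, and the 54 to 154 counts of Dlx6 limit what could be resolved.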
